A study of Homo sapiens with 2 samples.

Results

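The genes described here are 50 nucleolar ribosome biogenesis genes of the human lung cancer line H1299, listed by name for their role in making ribosomes. The rule uses no measured value, but the list was drawn up with earlier results of these data known. All 50 were found among the 38637 genes of the deposited table. Poly(A)-selected RNA-seq was measured in 2 libraries, 1 labelled PHF12 KD, with a title that carries the prefix si, and 1 control labelled with no treatment, with a title that ends in nc. Both libraries carry the genotype label wild type; the sources used here do not give the time after treatment, the oligonucleotides or the number of cultures. PHF12 is a chromatin protein with PHD zinc fingers that works in a histone deacetylase complex, and the study's title links it with HDAC1 and EGFR/AKT signalling. With 1 library per group there was no replicate check and no test was possible, so every difference below is one between these 2 libraries.

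Ribosomes are built in the nucleolus, where RNA polymerase I transcribes one long ribosomal RNA precursor. Small nucleolar ribonucleoproteins (snoRNPs) modify that precursor, the box C/D class by methylating riboses and the box H/ACA class by turning uridines into pseudouridines. Processing factors then cut and fold the RNA into a small and a large subunit, which mature separately and are exported to the cytoplasm. Tumour cells usually express these genes at high levels, and many of them are known targets of the transcription factor MYC.

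The knockdown library held 26084594 counts and the control library 24740581. The 50 genes took 0.761% of the counts in the knockdown library and 0.773% in the control library. PHF12 itself, the label check, had 756 counts (8.71 TPM) in the knockdown library, against 947 counts (11.4 TPM) in the control library, a log2 ratio of -0.40 (95% counting interval -0.55 to -0.27), which is 0.753 of the control level, and 8.90% of all genes that passed the filter had a larger absolute log2 ratio. TPM are transcripts per 1000000, scaled to gene length by the authors and used here for levels. The log2 ratio is that of counts per 1000000 (CPM) in the knockdown over the control library, with 0.5 CPM added to each, and its interval is an exact Clopper-Pearson one, without the added value, that covers counting error only. VIM, KRT8, KRT18 and NRAS, which this line expresses, were all present, with log2 ratios of -0.16, -0.40, -0.33 and 0.45, and the part of these differences in the members' values was not tested. None of the lung lineage genes NKX2-1, SFTPB, SFTPC, NAPSA and CDH1 passed a mean of 1 CPM, with a summed 0.934 TPM in the knockdown and 1.31 TPM in the control library. Of 4 immune genes CD68 passed, which is a lysosomal gene too, and PTPRC and CD3E had 0 counts in both libraries. Of the endothelial genes CDH5, PECAM1 and VWF 2 of 3 passed, and of the fibroblast genes COL1A1, DCN, LUM and PDGFRA 1 of 4 did, with summed levels of 1.23 and 1.33 TPM in the knockdown library and 1.12 and 1.05 TPM in the control library.

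As a group the 50 genes differed little between the libraries. Their median log2 ratio was -0.04, beside -0.01 over all 14559 genes that reached a mean of 1 CPM over both libraries, and the middle of the members, from the first to the third quartile, ran from -0.14 to 0.07, beside -0.14 to 0.13 over all those genes. A difference was called by size, at an absolute log2 ratio of at least 0.32, which is a fold of 5 to 4. By this size rule 1 member, NOB1, was lower in the knockdown library, where 8.02% of all genes were, and 2, NOLC1 and UTP3, were higher, where 6.99% were. A log2 ratio below 0 was found for 32 of the 50, beside 51.6% of all genes. At least 1.1-fold lower were 13 of the 50 members (25.1% of all genes) and at least 1.1-fold higher were 9 of the 50 (23.2%), which left 28 members within 1.1-fold. The counting interval lay below 0 for 20 of the 50 members. That is a larger share than the 20.9% of all genes and the 25.8% of the 8335 that reached a mean of 20 CPM. It lay above 0 for 10 of the 50 members, beside 20.3% and 27.3%, and these shares were not tested against each other. Every member passed the filter, the lowest averaging 25.2 CPM, and counting error is smaller at such levels than over all genes. In bulk RNA a change in the make-up of the culture and a change in RNA per cell cannot be told apart. Among the 8335 genes that reached a mean of 20 CPM, 337 were lower and 344 higher by the same rule, and the quartiles were -0.10 and 0.11.

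**Figure D1:**
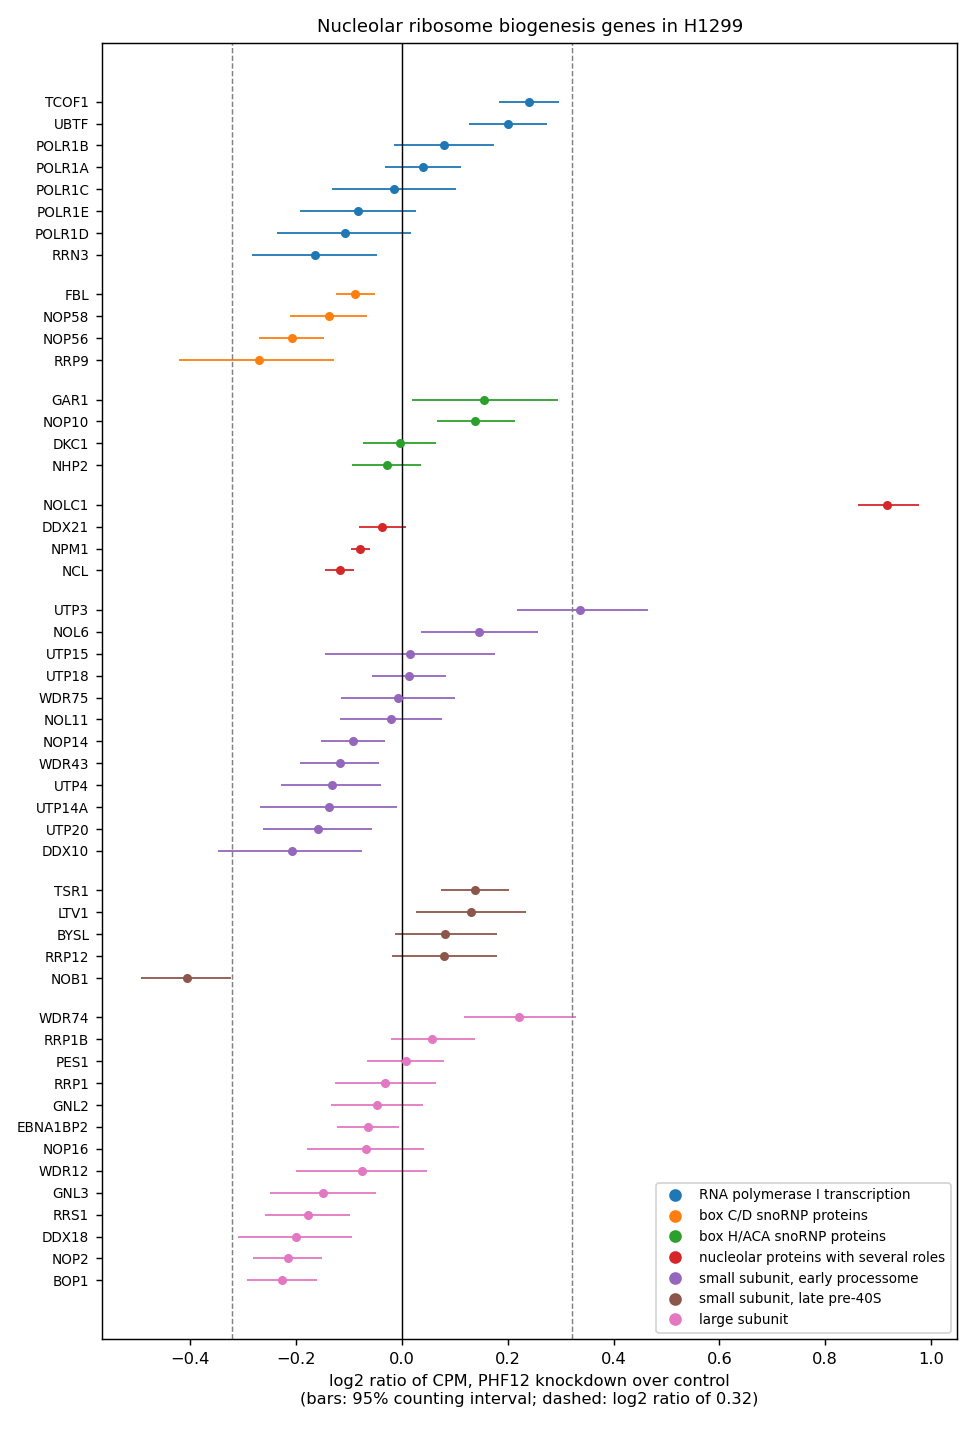
Log2 ratio of CPM, PHF12 knockdown over control, for each of the 50 genes by role, with 95% counting intervals as bars and the size rule marked by dashed lines. NOLC1 stands alone at 0.92, NOB1 is the lowest at -0.41, and the other members lie between -0.27 and 0.34.

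NOLC1 encodes a phosphoprotein that moves between the nucleolus and Cajal bodies and acts as a chaperone of both snoRNP classes. It had 7290 counts (208 TPM) in the knockdown library, against 3637 counts (108 TPM) in the control library. That is 1.89-fold higher in the knockdown library, a log2 ratio of 0.92 (0.86 to 0.98), and 0.392% of all genes had a larger absolute log2 ratio. By absolute log2 ratio NOB1 came next at -0.41, and among the higher members UTP3 at 0.34. TCOF1 encodes treacle, a nucleolar protein built of acidic serine-rich repeats like those of NOLC1 and bound to RNA polymerase I. Its difference was smaller, at 104 TPM in the knockdown and 86.3 TPM in the control library (0.24, 0.18 to 0.30). NOLC1 stood at 2.01 times the TPM of TCOF1 in the knockdown library and at 1.26 times in the control library.

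Of the other multi-role nucleolar proteins none moved by as much as 1.1-fold. NPM1, nucleophosmin, a histone chaperone that also carries ribosomal particles, was the most abundant member, with 46971 counts (2338 TPM) in the knockdown library and 46778 counts (2427 TPM) in the control library, a log2 ratio of -0.08 (-0.10 to -0.06). NCL, nucleolin, which binds ribosomal DNA and precursor RNA, had 570.0 TPM in the knockdown and 608 TPM in the control library (-0.12, -0.15 to -0.09). DDX21, an RNA helicase found at ribosomal DNA and on snoRNAs, had 188 TPM in the knockdown and 189.8 TPM in the control library (-0.04, -0.08 to 0.01). The counting intervals of NPM1 and NCL leave out 0, but the spread between cultures was not measured.

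The RNA polymerase I genes were split evenly, with 4 below 0 and 4 above and a median of 0.01 over 8. Without RRN3, POLR1C and POLR1D, which overlap other genes, 1 was below 0 and 4 above, with a median of 0.08. The 5 polymerase subunits stayed within 1.1-fold, and the counting interval of each held 0. POLR1A, the largest and catalytic subunit, had 28.8 TPM in the knockdown library and 27.6 TPM in the control library (0.04). POLR1B, the second largest subunit and the least abundant of this group, had 25.6 TPM in the knockdown and 23.9 TPM in the control library (0.08). POLR1C and POLR1D, which RNA polymerase III shares, stood at -0.02 and -0.11, and POLR1E at -0.08. Among the members, UBTF, TCOF1 and RRN3 differed more than the 5 listed subunits. UBTF, which coats active ribosomal DNA, had 3323 counts (68.3 TPM) in the knockdown library and 2727 counts (58.5 TPM) in the control library, a log2 ratio of 0.20 (0.13 to 0.27). RRN3, which recruits the polymerase to the promoter, lay on the other side, with 32.1 TPM in the knockdown and 35.4 TPM in the control library (-0.16, -0.28 to -0.05). Genes outside the list did not keep this order. The subunit genes POLR1H, POLR1F and POLR1G stood at -0.17 (-0.33 to -0.01), -0.13 (-0.29 to 0.03) and 0.10 (0.03 to 0.18). The factor genes TAF1A, TAF1D, TAF1B, TTF1 and TAF1C stood at -0.28, -0.18, -0.09, -0.02 and 0.03.

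The medians of the 2 snoRNP classes lay on different sides of 0. All 4 box C/D members were lower in the knockdown library, with a median of -0.17, while the 4 box H/ACA members had a median of 0.07 with 2 on each side. FBL, fibrillarin, the methyltransferase of the C/D particles, was the most abundant of them, with 1099 TPM in the knockdown library and 1148 TPM in the control library (-0.09, -0.13 to -0.05). NOP56, a scaffold protein of the particle, had 199.6 TPM in the knockdown library and 227 TPM in the control library (-0.21, -0.27 to -0.15). Its partner NOP58 had 163 TPM in the knockdown and 176 TPM in the control library (-0.14, -0.21 to -0.07). RRP9, the protein specific to the U3 particle that guides cleavage, was the lowest, with 723 counts (50.6 TPM) in the knockdown library and 825 counts (60.2 TPM) in the control library (-0.27, -0.42 to -0.13). The counting intervals of all 4 lay below 0, and none of the 4 passed the size rule. SNU13, a further box C/D protein that is not a member, stood at -0.03 with an interval that held 0 (-0.11 to 0.04).

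Among the H/ACA proteins, DKC1, dyskerin, the pseudouridine synthase, had 85.6 TPM in the knockdown and 84.4 TPM in the control library (0.00, -0.07 to 0.06). NHP2, an RNA-binding core protein, had 526 TPM in the knockdown and 528 TPM in the control library (-0.03). The small proteins NOP10 and GAR1 were slightly higher in the knockdown library. NOP10 had 3263 counts (694 TPM) there, against 2794 counts (619.8 TPM) in the control library (0.14, 0.07 to 0.21), and GAR1 had 940 counts (96.5 TPM), against 795 counts (85.1 TPM) in the control library (0.15, 0.02 to 0.30). Per length the transcripts of 1 particle were far from equal: NOP10 stood at 7.20 times GAR1 in the knockdown library and 7.29 times in the control library, and FBL at 5.50 times NOP56 in the knockdown library and 5.06 times in the control library.

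**Figure D2:**
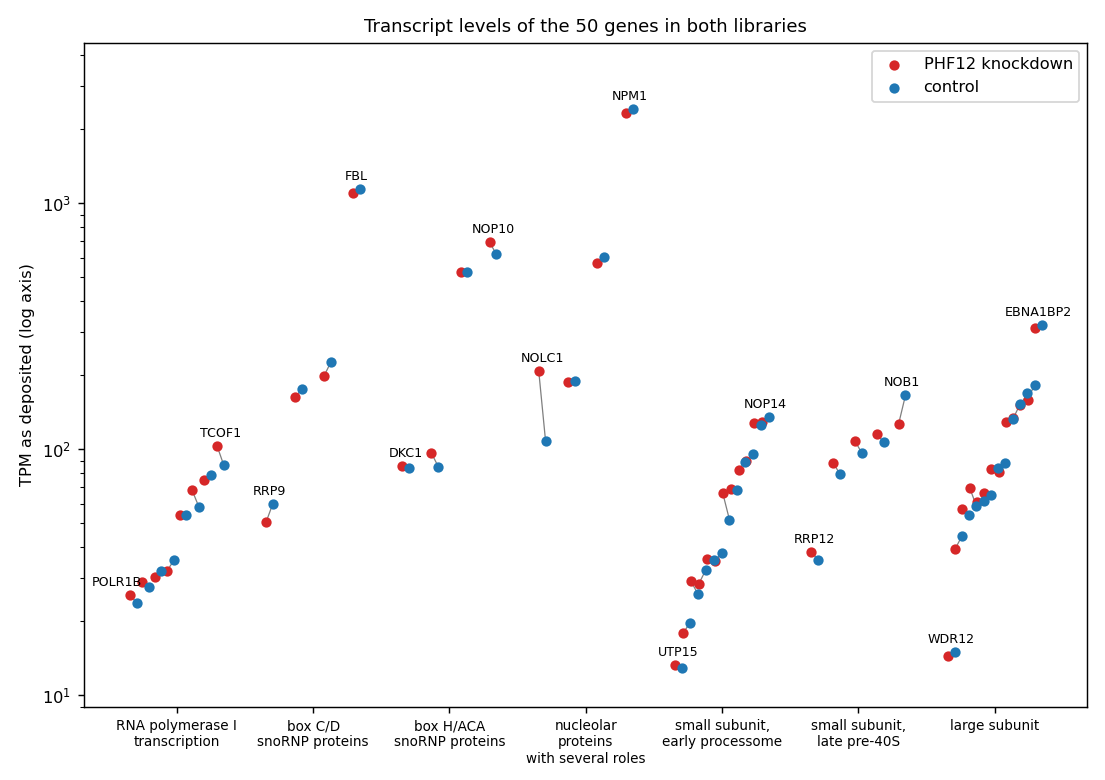
TPM as deposited, on a log axis, of each gene in the PHF12 knockdown library (red) and the control library (blue), grouped by role, with the lowest and highest gene of each group named and grey lines joining the 2 values of a gene. Levels run from 13.3 TPM (knockdown) and 12.9 TPM (control) for UTP15 to 2338 TPM (knockdown) and 2427 TPM (control) for NPM1, and NOLC1 is the pair set widest apart.

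The early small subunit factors build the processome, the large particle that forms on the nascent precursor. Their median was -0.06 over 12 genes, with 8 below 0. UTP3, a processome protein known in yeast as Sas10, was the highest, with 1247 counts (66.6 TPM) in the knockdown library, against 929 counts (51.7 TPM) in the control library, 1.27-fold higher at a log2 ratio of 0.34 (0.22 to 0.46), an interval that reaches below the size rule. NOL6 was next, at 29.2 TPM in the knockdown and 25.9 TPM in the control library (0.15, 0.04 to 0.26). The members related to the UtpA subcomplex, which is the first to bind the precursor, kept within 1.1-fold: UTP4 at -0.13, WDR43 at -0.12, NOL11 at -0.02, WDR75 at -0.01 and UTP15 at 0.01. NOP14, the most abundant of the 12, had 129 TPM in the knockdown and 135 TPM in the control library (-0.09). The lowest was the helicase gene DDX10, with 847 counts (28.4 TPM) in the knockdown library and 925 counts (32.3 TPM) in the control library (-0.21, -0.35 to -0.08). UTP20 stood at -0.16, UTP14A at -0.14 and UTP18 at 0.01.

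The late small subunit factors held the lowest gene of all 50. NOB1 is the endonuclease that makes the last cut of the small subunit RNA in the cytoplasm. It had 2023 counts (127 TPM) in the knockdown library, against 2533 counts (166 TPM) in the control library, 0.753 of the control level at a log2 ratio of -0.41 (-0.49 to -0.32), and 8.67% of all genes had a larger absolute log2 ratio. The other 4 members of this group, which accompany the particle to the cytoplasm, were above 0. Of the small subunit genes outside the list, 11 of 33 were below 0. Among these were PNO1 at -0.18 (-0.30 to -0.06), RIOK2 at -0.15 (-0.30 to -0.01) and RIOK1 at -0.12 (-0.25 to 0.01), while RIOK3 stood at 0.07. Within the member group the values were as follows. TSR1 had 108 TPM in the knockdown and 96.5 TPM in the control library (0.14, 0.07 to 0.20), LTV1 stood at 0.13 (0.03 to 0.23), BYSL at 0.08 (-0.01 to 0.18) and RRP12 at 0.08 (-0.02 to 0.18).

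The large subunit factors had a median of -0.07 over 13 genes, with 10 below 0 and none past the size rule. PES1, BOP1 and WDR12 form the PeBoW complex, needed for processing of the large subunit RNA. BOP1 was the lowest of the 13, with 3584 counts (159 TPM) in the knockdown library, against 3956 counts (183 TPM) in the control library (-0.23, -0.29 to -0.16). WDR12 had 14.4 TPM in the knockdown and 15.0 TPM in the control library (-0.08), and PES1 had 66.5 TPM in the knockdown and 65.0 TPM in the control library (0.01). BOP1 thus stood at 2.40 times PES1 in the knockdown library and at 2.82 times in the control library. NOP2, a cytosine methyltransferase of the large subunit RNA, had 134 TPM in the knockdown and 153 TPM in the control library (-0.22, -0.28 to -0.15). DDX18, a helicase, stood at -0.20 and RRS1, which helps bring in another ribosomal RNA, at -0.18.

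The nucleolar GTPases differed by little: GNL3, nucleostemin, stood at -0.15 (-0.25 to -0.05) and GNL2 at -0.05 (-0.13 to 0.04). EBNA1BP2, the most abundant of this group, had 311 TPM in the knockdown and 319.8 TPM in the control library (-0.07), and NOP16 stood at -0.07. The paralogs RRP1 and RRP1B stood at -0.03 and 0.06, each with an interval that held 0. WDR74, which works with a remodelling ATPase on the maturing particle, was the highest, with 1629 counts (69.9 TPM) in the knockdown library, against 1316 counts (58.9 TPM) in the control library (0.22, 0.12 to 0.33).

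Of the 50 genes, 11 share part of their span with another gene that passed the filter, 10 of them on the opposite strand, and the strand setting of the counting is not given. These are RRN3, POLR1C, POLR1D, NHP2, DDX21, NOP14, TSR1, BOP1, RRS1, GNL3 and EBNA1BP2, and the listed span of POLR1C reaches over 16 genes. NOLC1, UTP3 and NOB1 are not among them. RRN3 also has 3 pseudogene rows in the table, with 213 counts in the knockdown and 211 in the control library.

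Other genes of the pathway, 104 in all and none of them a member, had a median log2 ratio of 0.02 with 46 below 0. By the size rule 0 were lower and 5 higher, against the 8.02% and 6.99% of all genes given above. Among the 8335 genes that reached a mean of 20 CPM, where counting error is smaller, 337 were lower and 344 higher. The 3 highest with a mean of at least 5 CPM were MAK16, a large subunit factor, at 0.48 (0.31 to 0.68), MPHOSPH10, a processome protein, at 0.47 (0.33 to 0.62), and the helicase gene DDX24 at 0.42 (0.38 to 0.47). DDX24 was the most deeply counted of these, with 9760 counts (189 TPM) in the knockdown library and 6853 counts (138 TPM) in the control library. The 3 lowest were TAF1A, a subunit of the RNA polymerase I promoter factor, at -0.28 (-0.61 to 0.01), UTP23 at -0.26 (-0.42 to -0.11) and DIMT1, a methyltransferase of the small subunit RNA, at -0.20 (-0.33 to -0.08). By role the medians were -0.05 for the 14 other RNA polymerase I genes, -0.05 for the 14 snoRNP assembly and modification genes, 0.07 for the 33 small subunit genes and 0.03 for the 43 large subunit genes. Of the cytosolic ribosomal protein genes, 70 of 83 were below 0, with a median of -0.05, and of the mitochondrial ones 37 of 78, with a median of 0.03; the differences between these groups were not tested.

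**Figure D3:**
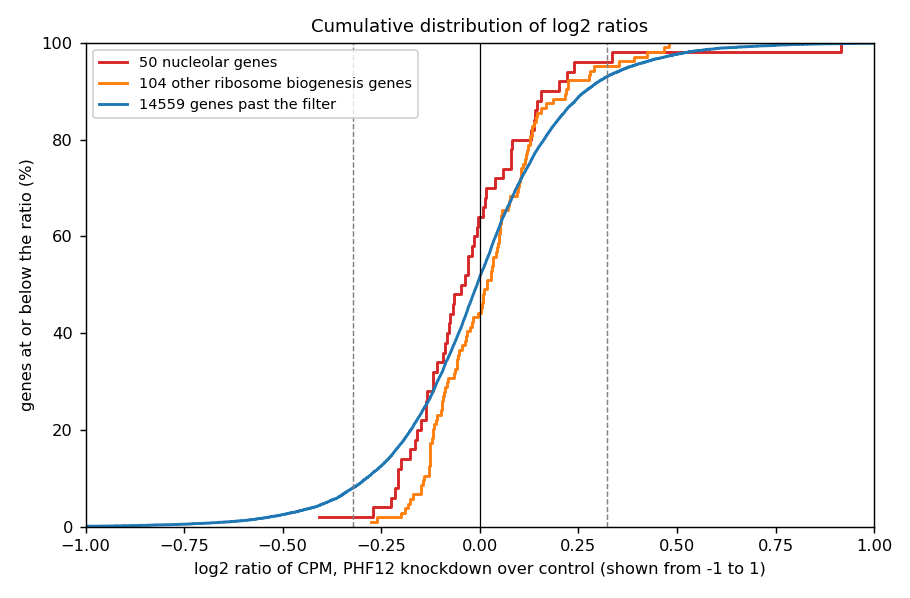
Cumulative share of genes by log2 ratio of CPM, PHF12 knockdown over control, for the 50 nucleolar genes, the 104 other ribosome biogenesis genes and the 14559 genes past the filter, with dashed lines at the size rule. The curve of the 50 genes passes its middle at -0.04 and that of the 104 at 0.02, and both are steeper than that of all genes. Genes that reached a mean of 20 CPM, not drawn, had quartiles of -0.10 and 0.11. Those of the 50 were -0.14 and 0.07, and those of the 104 were -0.10 and 0.11.

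Some members held a promoter word that did not enter the rule. The E-box CACGTG, which reads the same on both strands and is bound by MYC with MAX among other factors, was searched in the promoters of RefSeq (GRCh38.p14), which run from 250 bases before to 50 after each annotated start, and a gene was counted if any of its starts had one. It stood in 19 of the 41 members with an entry (46.3%), against 25 of 91 other ribosome biogenesis genes (27.5%), 12.9% of 10329 protein-coding genes past the filter and 8.77% of all 27305 genes of the promoter table; these shares were not tested against each other. Most of these lay near the start. In 17 of the 41 members (41.5%) an E-box began between position -20 and position 50, counted with the first transcribed base as 1, against 3.14% of the protein-coding genes past the filter. That stretch was picked after the positions were seen. By role an E-box was found in 0 of 6 RNA polymerase I genes, 7 of 12 early and 2 of 4 late small subunit genes, 5 of 9 large subunit genes, 2 of 3 box C/D genes, 2 of 4 box H/ACA genes and 1 of 3 multi-role genes. The windows below are those of the 8 members whose E-box lies nearest the start, shown to set the word beside its surroundings, with the E-box in capitals.
GNL2, chr1:37595917-37595946, minus strand, position 4: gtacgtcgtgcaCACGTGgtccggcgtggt
WDR43, chr2:28894658-28894687, plus strand, position 4: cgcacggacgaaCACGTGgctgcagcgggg
RRP9, chr3:51941892-51941921, minus strand, position -5: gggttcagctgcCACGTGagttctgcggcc
UTP18, chr17:51260538-51260567, plus strand, position 5: gcagcgaggttcCACGTGagcgcctgcgtt
FBL, chr19:39846356-39846385, minus strand, position 7: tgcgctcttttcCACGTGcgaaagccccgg
GNL3, chr3:52686026-52686055, plus strand, position 7: ggcttcagttcaCACGTGgcgccagcggag
UTP20, chr12:101280083-101280112, plus strand, position -10: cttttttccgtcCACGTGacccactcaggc
NOP10, chr15:34343130-34343159, minus strand, position -11: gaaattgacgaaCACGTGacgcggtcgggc

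None of the 8 genes passed the size rule, with log2 ratios from -0.27 for RRP9 to 0.14 for NOP10. The 19 members with an E-box had a median log2 ratio of -0.07, from -0.27 to 0.15 with 12 below 0, and the 22 members with an entry but no E-box had a median of -0.03, from -0.41 to 0.34 with 15 below 0. UTP3 and NOB1 were among those without, and NOLC1 was among the 9 members not in the promoter table. MYC, named after its values were seen, had 7694 counts (184 TPM) in the knockdown library, against 8954 counts (223 TPM) in the control library, a log2 ratio of -0.30 (-0.35 to -0.26), and its part in the members' values was not tested. The ETS motif CCGGAAG, searched on both strands, stood in 16 of the 41 members (39.0%), in 43 of 91 other ribosome biogenesis genes (47.3%) and in 22.5% of the protein-coding genes past the filter. The TATA box TATAAA stood in 2 of 41 (4.88%), in 5 of 91 (5.49%) and in 8.21% of those genes. These motifs were chosen with the promoters at hand, and a match is a run of letters, not a measured binding site.

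**Figure D4:**
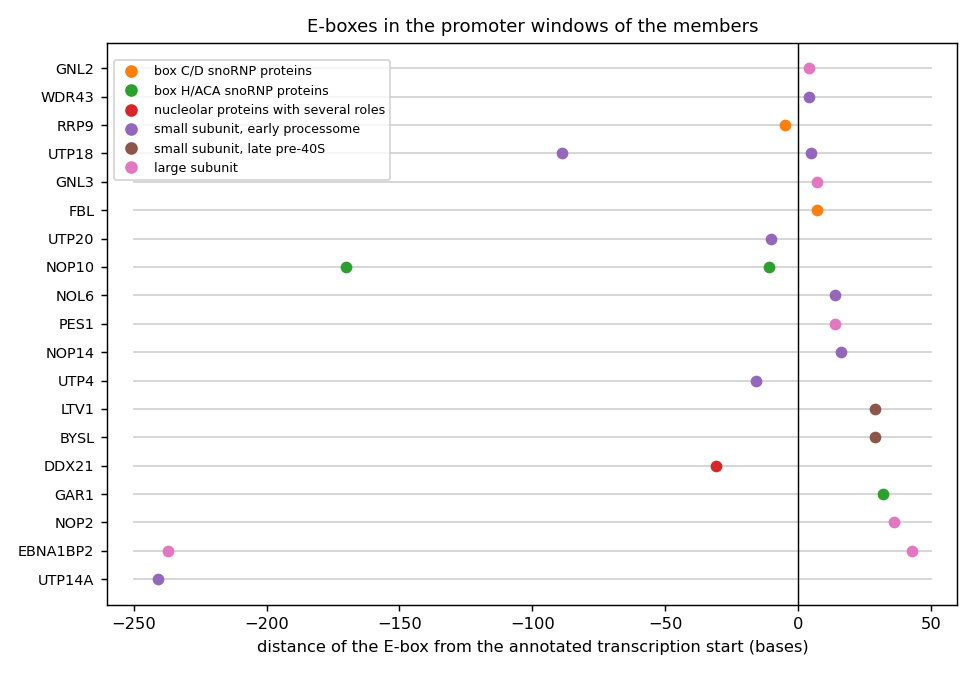
Distance of each E-box from the annotated transcription start, in bases, for the 19 members that hold one, with each grey line the searched window and colour the role. In 17 of the 19 genes an E-box lies between -20 and 50; DDX21, at -31, and UTP14A, at -241, are the others.

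An earlier search of these same data had found words of 7 bases over-represented in the 3′ untranslated regions of genes that differed most between the libraries. NOLC1 was part of that search, so its match is a description and lends no support. By GENCODE release 29, 2 of the 50 members, NOLC1 and NOP10, held TCGGAGA or ATCGGAG, the words of the higher genes, as did 3.10% of 12323 protein-coding genes past the filter. DDX18 alone held ACATCGA or CATCGAA, the words of the lower genes, as did 2.71% of those genes. The sites are shown with the words in capitals, which overlap in NOLC1 and in DDX18.
NOLC1, chr10:102162293-102162320, plus strand: aagggtgatgATCGGAGActacttactt
NOP10, chr15:34341910-34341936, minus strand: ctgttaccccTCGGAGActccgtaacc
DDX18, chr2:117831937-117831964, plus strand: aagtgtgctaACATCGAAtatagagaaa

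NOLC1, NOP10 and DDX18 stood at 0.92, 0.14 and -0.20, and of these only NOLC1 passed the size rule. UTP3 and NOB1, the other members past the size rule, held none of the words. The words were found in these same data, so the directions of the 3 values lend them no support. What the words do in these cells was not tested.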

How the data were processed

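The submitters' processing notes name HISAT2, HTSeq and hg38; the sources used here give no versions, annotation or strand setting. The authors deposited raw counts per gene and TPM for 2 libraries, and the counts divided by the listed gene length returned their TPM to within 1e-06. TMM factors (edgeR 4.0.16, limma 3.58.1, R 4.3.3) were 1.00 for the knockdown and 0.997 for the control library. CPM were computed on the scaled totals, and genes averaging at least 1 CPM were kept. No p-value was made with 1 library per group; genes were called at an absolute log2 ratio of at least 0.32. Intervals cover counting error only. The calculation was tested on simulated counts. Python 3.11.15 was used with scipy 1.17.1, numpy 2.4.6, matplotlib 3.10.9 and pandas 2.3.3. The members, role groups and lists were chosen with earlier results of these data known. Named were all members, with full values for those past that size and the highest, lowest and most abundant of each role group, the 3 highest and 3 lowest other pathway genes averaging at least 5 CPM, PHF12 and the RNA45SN genes. Alternatives were total-count scaling, DESeq2 1.42.0 size factors, pseudocounts of 0.1 and 1, TPM, no filter, a minimum of 5 CPM, folds of 1.1 and 1.5, thinning of the knockdown library, and leaving out overlapping members or members with pseudogenes. Chosen after the data were seen were leaving out NOLC1 and leaving out members with a word. Promoter sequences are RefSeq's.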

Additional observations from a re-analysis of the deposited data

How the results depend on the processing

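The median of the 50 genes stayed between -0.05 and -0.02 over 12 alternatives, and 22 to 32 members were below 0, the 22 being of the members left without overlapping genes. With all 50 kept, 28 were below 0 with the deposited TPM, 29 with DESeq2 size factors and 30 with total counts. Scaling moved the median of all genes by at most 0.02. The counts past the size rule moved with the rule itself: at least 1.1-fold lower were 13 members and higher 9, and at least 1.5-fold lower were 0 and higher 1, which is NOLC1. The count of members higher by the size rule was 1 without NOLC1 and 1 without the members that hold a word. The box H/ACA median was 0.14 without overlapping members, where NHP2 is left out. Of 400 single values compared, 2 moved past the end of their counting interval, both of NPM1, which stood at -0.06 with DESeq2 size factors and -0.05 with the deposited TPM. Dropping the filter or setting it at 5 CPM could not change any value, median or count of the members, as the lowest member averaged 25.2 CPM. Those settings are part of the numbers of alternatives and values given here. NOLC1 stayed between 0.91 and 0.94, UTP3 between 0.33 and 0.36 and NOB1 between -0.41 and -0.38. No called value changed sign, while those of DKC1, WDR75, POLR1C and NOL11, which did not pass the size rule, did with some settings. Depth gave every member at least 662 counts in the knockdown and 618 in the control library, and the spread between cultures was not measured. No paired analysis was possible because each group has 1 library.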

Other observations

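The table also lists ribosomal RNA genes, the product of the pathway, whose near-identical copies and lack of poly(A) tails make their counts uncertain. Among the precursor genes, RNA45SN1 had 5787 counts in the knockdown and 6136 in the control library, a log2 ratio of -0.17 (-0.22 to -0.12). RNA45SN2 had 1175 counts in the knockdown and 1320 in the control library (-0.25, -0.37 to -0.14), and RNA45SN3 had 354 in the knockdown and 711 in the control library (-1.06, -1.28 to -0.90). Of the large subunit RNA genes, each inside one of these precursors, RNA28SN1 had 5106 counts in the knockdown and 5504 in the control library, RNA28SN2 had 405 in the knockdown and 686 in the control library, and RNA28SN3 had 315 in the knockdown and 667 in the control library. The small subunit RNA genes, also inside these precursors, lay on the other side of 0, RNA18SN1 with 340 counts in the knockdown and 281 in the control library (0.18, -0.04 to 0.42) and RNA18SN2 with 727 in the knockdown and 551 in the control library (0.31, 0.15 to 0.48). Each precursor gene spans the RNA genes inside it, so its counts may include theirs. The values of precursor and product are therefore not separate results, and the precursor RNA itself cannot be told apart. The large and small subunit RNA genes were added with their values already known.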
